A study of Mus musculus with 10 samples.

Results

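The mitotic spindle, kinesin and cytokinesis genes are a fixed list of 53 mouse genes whose products drive entry into mitosis, build the spindle, attach and separate the chromosomes, and divide the cell. The list was given by gene symbol, and every probe set that the array's annotation table assigned to a listed symbol was collected. Of the 53 genes, 52 were found, with 121 probe sets among the 45101 on the array, and these 52 were among 18193 genes with a probe set of their own. Ccnb1, the gene of cyclin B1, was not analysed here. For each gene the brightest probe set, by its mean over the 10 arrays, was used, and its other probe sets served as a check. The genes were compared between Irf4-/- and Irf4+/+ B cells, 5 samples of each genotype, to ask how the mitotic programme of stimulated B cells differed without Irf4, a transcription factor of activated B cells and plasma cells. Both genotypes came from littermate C57BL/6 mice aged 12 weeks. Mature B cells of the spleen were obtained by removing the other cells with magnetic beads, and both genotypes received the same stimulus, 3 days of culture with an antibody to CD40 (1 mg/ml on the labels) and IL-4 (20 ng/ml). CD40 and IL-4 signals together imitate T cell help and drive resting B cells into division. The labels give no further detail of the Irf4 allele, nor whether each sample stands for a mouse or culture of its own; the p-values therefore rest on the spread among these samples, which may be technical.

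A dividing cell enters mitosis when cyclin-bound Cdk1 becomes active, and Plk1 and the Aurora kinases then prepare centrosomes, centromeres and microtubules. Kinesin motors and microtubule-binding proteins assemble the spindle, the checkpoint holds anaphase back until every kinetochore is attached, and the anaphase-promoting complex then releases separase to split the sister chromatids. The central spindle and the contractile ring complete division. Transcripts of many of these genes, though not all, accumulate together in the G2 and M phases of the cell cycle. In a growing culture the level of such transcripts is high and in resting B cells it is low.

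Irf4 itself still had signal in the knockout samples. Its brightest probe set read 2821, 2989, 2766, 2638 and 2748 in Irf4-/- samples, against 3899, 3745, 3758, 3978 and 3426 in Irf4+/+ samples, as the authors' MAS5 signals, on which all levels here are given. All Irf4-/- samples lay below all Irf4+/+ samples, by 1.35-fold (log2 fold change -0.43, adjusted p = 4.98e-06). Where this probe set lies relative to the altered part of the allele is not given, so that it does not check the labels. On the dimmest Irf4 probe set past the filter the decrease did not pass the test (limma, adjusted p = 0.0578). The authors' signals had the same trimmed mean of 250 on every array, and the array median averaged 42.7 ± 1.87 in Irf4-/- samples and 40.6 ± 2.23 in Irf4+/+ samples (SD, n = 5 each). All 7 B cell markers tested were higher in Irf4-/- samples, with summed signals of 43910 to 48073 in Irf4-/- samples and 23836 to 26412 in Irf4+/+ samples. All 11 natural killer cell markers tested were also higher, summing to 11859 to 16266 in Irf4-/- samples and 1362 to 1631 in Irf4+/+ samples. Of the 7 macrophage and monocyte markers tested 3 were higher, with a list sum of 1307 to 1541 in Irf4-/- samples and 485.3 to 588.4 in Irf4+/+ samples, and Cd14, Itgam, C1qa, C1qb and C1qc averaged under 26.1 in both genotypes. Of the 4 T cell markers tested Thy1 and Cd5 were higher, and Cd8a and Zap70 did not pass the test. The T cell list summed to 4695 to 5726 in Irf4-/- samples and 1190.0 to 1657 in Irf4+/+ samples, most of it Thy1 (means 4932 in Irf4-/- samples and 1153 in Irf4+/+ samples), while Cd3d, Cd3e, Cd3g, Cd4 and Cd8b1 averaged under 26.1 in both. Of the 4 dendritic cell markers tested 2 were higher and Flt3 was lower, with a list sum of 663.4 to 770.0 in Irf4-/- samples and 910.5 to 1082 in Irf4+/+ samples. Of the 5 granulocyte markers tested 3 were higher (list sum 668.3 to 1079 in Irf4-/- samples and 137.8 to 215.4 in Irf4+/+ samples), and of the 2 stromal markers tested 1 was (222.3 to 291.0 in Irf4-/- samples and 136.9 to 193.6 in Irf4+/+ samples). None of the 4 erythroid and platelet markers tested was called. Their list sums overlapped, at 138.6 to 340.7 in Irf4-/- samples and 209.4 to 324.7 in Irf4+/+ samples. The control for 18S ribosomal RNA averaged 207.1 ± 66.1 in Irf4-/- samples and 69.0 ± 20.2 in Irf4+/+ samples (SD, n = 5 each, exact two-sided permutation p = 0.00794, adjusted over 4 array measures 0.0317), and the Actb 3′ to 5′ ratio was 1.10 in Irf4-/- samples and 1.15 in Irf4+/+ samples (exact permutation p = 0.0238, adjusted 0.0476). The part of these cells and RNA measures in the results was not tested. In such bulk samples, fewer cells of a type and less RNA per cell cannot be told apart.

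The mitotic genes were mostly lower in Irf4-/- B cells, by modest amounts. Of the 52 tested genes, 40 (76.9%) were lower at an adjusted p under 0.05 (limma, Benjamini-Hochberg over 12246 genes), where 23.8% of all genes tested were lower. None was higher at that threshold (limma; 42 of the 52 had an unadjusted p under 0.05), where 23.2% of all genes tested were higher. The other 12 did not pass the test. In 28 of the 52, every Irf4-/- sample was below every Irf4+/+ sample, against 18.3% of all genes, and in none was every Irf4-/- sample above, against 17.3%. The median log2 fold change, Irf4-/- over Irf4+/+, was -0.33 over the 52 genes, with quartiles of -0.44 and -0.18, while the median over all genes was 0.00 with quartiles of -0.27 and 0.29. The called decreases ran from 1.11-fold to 1.77-fold with a median of 1.32-fold. Of them 34 reached 1.2-fold, where 20.2% of all genes did so, and 4 reached 1.5-fold, where 8.3% did: Ncapg, Hmmr, Cdc25c and Ttk. None reached a 2-fold decrease, which 2.48% of all genes did. None of the 52 was dim, the lowest genotype mean being a signal of 150.4.

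**Figure D1:**
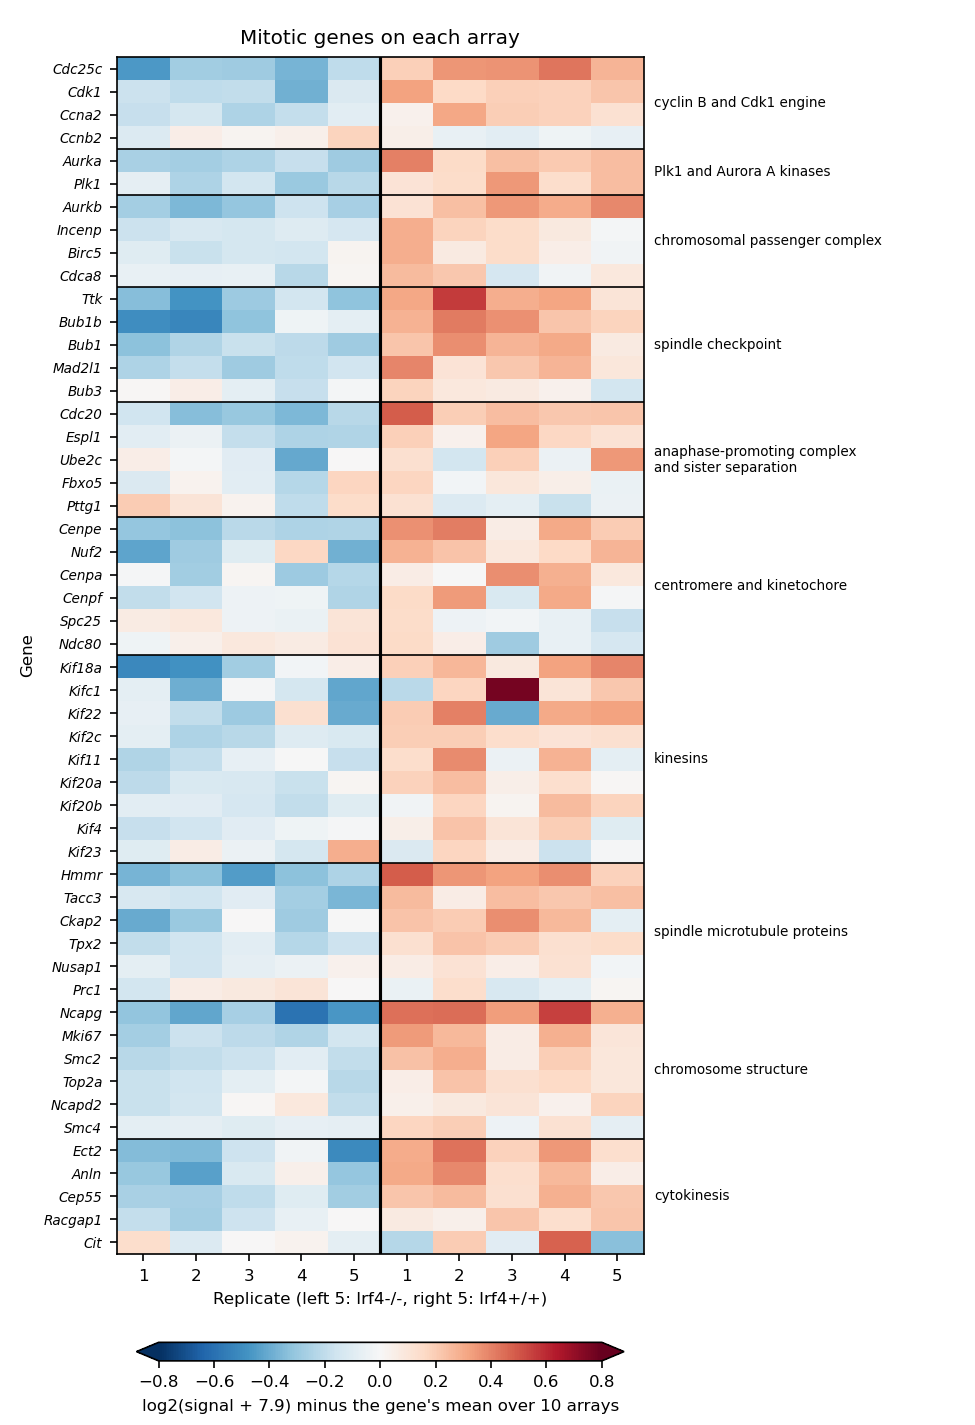
Log2 signal of each of the 52 genes on each of the 10 arrays, relative to the gene's mean over all arrays, with the 5 Irf4-/- arrays on the left and the 5 Irf4+/+ arrays on the right and genes grouped by role. Most rows are below their mean on the Irf4-/- arrays and above it on the Irf4+/+ arrays, while Ccnb2, Pttg1, Ndc80, Spc25, Kif23 and Prc1 have log2 fold changes above 0, of which Kif23 and Prc1 fall below 0 with arrays scaled to a common median.

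The median log2 signal over the 52 genes was 9.76, 9.79, 9.84, 9.90 and 9.81 on the Irf4-/- arrays, against 10.17, 10.17, 10.15, 10.15 and 10.06 on the Irf4+/+ arrays. The genotypes did not overlap on this summary, and leaving out any 1 array kept the median log2 fold change of the 52 genes between -0.34 and -0.31. Among the Irf4-/- samples, replicate 1 had the lowest median and the highest 18S signal (289.0), and replicate 4 had the highest median and the lowest 18S signal (126.2). Among the Irf4+/+ samples, replicate 5 had the lowest median and the highest 18S signal (104.9). Irf4+/+ replicate 5 was also the lowest of its genotype for 20 of the 52 genes. Gene by gene the Irf4-/- arrays did not keep the order of their medians. Replicate 1 was the lowest of them for 14 genes, and replicate 4 was the lowest for 15 and the highest for 17. The part of the ribosomal RNA signal in the order of the medians was not tested.

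**Figure D2:**
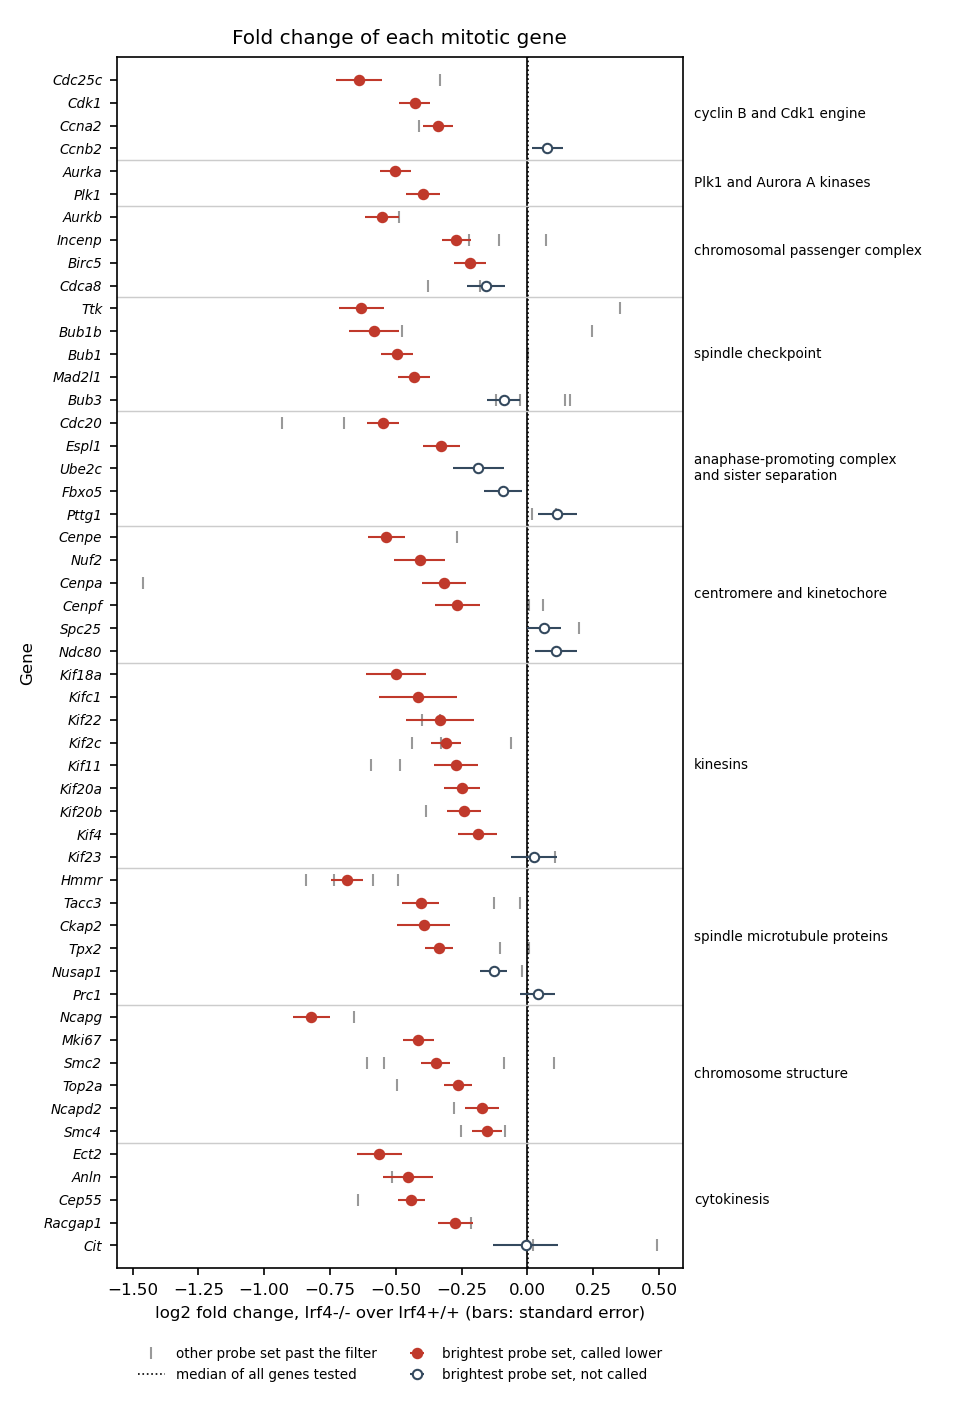
Log2 fold change, Irf4-/- over Irf4+/+, of each of the 52 genes with its standard error as a bar, grouped by role, filled where the adjusted p was under 0.05, and grey ticks for the gene's other probe sets past the filter. The points run from -0.82 for Ncapg to 0.11 for Pttg1, and 40 of them are called lower.

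The promoters of these genes shared sequence features that the choice of genes did not use. Mitotic promoters are known for a cell cycle homology region, an element bound by repressive complexes in resting cells, and for CCAAT boxes bound by NF-Y. RefSeq promoter windows on GRCm38.p6, from 250 bases before to 50 bases after the annotated start, were held for 45 of the 52 genes. They were searched on both strands for TTTGAA, the core of the homology region, with the palindromic variant TTCGAA counted as the same motif, and for CCAAT, the box of NF-Y. A match is a description of letters and not a binding site. A gene was counted if any of its windows held the motif, or both motifs together. The homology motif stood in 36 of the 45 genes (80.0%), against 16.7% of the 9915 tested genes with a window and 21.7% of all 27025 genes with a window. CCAAT stood in 32 (71.1%), against 42.7% of tested genes and 41.1% of all genes with a window. Both stood in 31 (68.9%), against 6.78% and 8.61%. The homology motif lay within 50 bases of the start in 32 genes (71.1%), against 4.45% of tested genes and 6.12% of all genes with a window. To show what these promoters share, the windows are given of the gene with the smallest p among those holding both motifs in the kinase engine, the Plk1 and Aurora A pair, the passenger complex and the checkpoint, and that of Ccnb2, which was added after its value was seen because it has both motifs and did not pass the test. Cdca8, the gene so chosen in the passenger complex, did not pass the test either. Each window is given 5′ to 3′ on the gene's strand, with both motifs, read on either strand, in capitals; the 2 motifs can share a base, as they do once in Cdca8. All 5 lie on the minus strand, Cdk1 at chr10:69352863-69353162, Aurka at chr2:172370521-172370820, Cdca8 at chr4:124936868-124937167, Bub1 at chr2:127831810-127832109 and Ccnb2 at chr9:70421505-70421804.
Cdk1: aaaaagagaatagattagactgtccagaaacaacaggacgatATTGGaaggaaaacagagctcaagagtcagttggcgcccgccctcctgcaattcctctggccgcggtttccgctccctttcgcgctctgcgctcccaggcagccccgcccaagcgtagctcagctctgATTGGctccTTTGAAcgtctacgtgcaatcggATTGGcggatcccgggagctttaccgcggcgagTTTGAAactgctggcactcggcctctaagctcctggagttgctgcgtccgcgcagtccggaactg
Aurka: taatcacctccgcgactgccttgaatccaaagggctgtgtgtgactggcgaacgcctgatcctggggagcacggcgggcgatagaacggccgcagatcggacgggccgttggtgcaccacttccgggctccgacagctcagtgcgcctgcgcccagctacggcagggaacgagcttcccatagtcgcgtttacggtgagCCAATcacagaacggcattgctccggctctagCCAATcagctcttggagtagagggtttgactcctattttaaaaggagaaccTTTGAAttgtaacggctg
Cdca8: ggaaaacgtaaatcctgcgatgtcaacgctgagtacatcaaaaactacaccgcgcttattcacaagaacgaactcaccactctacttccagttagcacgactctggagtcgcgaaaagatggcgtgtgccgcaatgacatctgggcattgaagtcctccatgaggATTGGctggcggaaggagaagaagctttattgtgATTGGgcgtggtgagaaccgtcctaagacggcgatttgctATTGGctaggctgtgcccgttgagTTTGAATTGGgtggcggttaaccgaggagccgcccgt
Bub1: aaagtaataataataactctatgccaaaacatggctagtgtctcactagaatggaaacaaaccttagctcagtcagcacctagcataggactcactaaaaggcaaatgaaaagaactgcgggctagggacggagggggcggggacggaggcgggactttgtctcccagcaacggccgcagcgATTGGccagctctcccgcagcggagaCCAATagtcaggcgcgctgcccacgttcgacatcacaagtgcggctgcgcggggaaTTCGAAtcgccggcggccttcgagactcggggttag
Ccnb2: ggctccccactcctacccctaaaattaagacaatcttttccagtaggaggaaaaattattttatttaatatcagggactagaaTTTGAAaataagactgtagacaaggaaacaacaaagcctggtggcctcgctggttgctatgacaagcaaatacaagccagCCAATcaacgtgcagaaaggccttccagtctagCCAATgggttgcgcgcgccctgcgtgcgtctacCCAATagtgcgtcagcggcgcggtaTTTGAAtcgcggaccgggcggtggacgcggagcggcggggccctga

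Counted from the annotated start, the homology motif nearest the start of Cdk1 began at base -15 and its nearest CCAAT box at base -48. In Ccnb2 the homology motif nearest the start began at base 5 and the CCAAT boxes at bases -87, -54 and -21. Genes that passed the test and genes that did not were found with and without the 2 motifs. Of the 31 genes with both motifs 23 were lower and 8 did not pass the test, with a median log2 fold change of -0.33, and of the 14 without both, 10 were lower and 4 did not pass, with a median of -0.36. The 8 were Ccnb2, Cdca8, Bub3, Ube2c, Fbxo5, Spc25, Kif23 and Prc1. Windows were not held for Ccna2, Cdc25c, Aurkb, Incenp, Kif20a, Tpx2 and Smc4.

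In the cyclin and Cdk1 engine, the kinase and its phosphatase were lower in Irf4-/- cells while cyclin B2 did not pass the test, with 3 of 4 genes lower and a median log2 fold change of -0.38. Cdk1, the kinase that drives mitotic entry, read 1729.6, 1692, 1702, 1490.3 and 1796 in Irf4-/- samples, against 2434, 2173, 2224, 2215 and 2271 in Irf4+/+ samples. The genotypes did not overlap, and Cdk1 was 1.35-fold lower in Irf4-/- samples (log2 fold change -0.43 ± 0.0580 (SE), adjusted p = 1.19e-05). Cdc25c, the phosphatase that removes the inhibitory phosphates from Cdk1, read 136, 154, 154, 144 and 163 in Irf4-/- samples, against 217, 244, 245, 257 and 229.9 in Irf4+/+ samples. It was 1.56-fold lower without overlap (log2 fold change -0.64 ± 0.0886 (SE), adjusted p = 1.50e-05). Ccna2, the cyclin of S and G2 phase, read 2230.3, 2305, 2142, 2220.2 and 2389 in Irf4-/- samples, against 2604, 3146, 2908, 2889.9 and 2765 in Irf4+/+ samples. Its decrease was 1.27-fold, also without overlap (log2 fold change -0.34 ± 0.0565 (SE), adjusted p = 9.96e-05). Ccnb2, a mitotic cyclin that activates Cdk1, read 1297, 1449, 1418, 1437 and 1583 in Irf4-/- samples, against 1445, 1341, 1319, 1363 and 1335 in Irf4+/+ samples. The genotypes overlapped for Ccnb2, whose log2 fold change of 0.08 did not pass the test (adjusted p = 0.318).

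Both kinases that prepare the spindle poles were lower, with a median log2 fold change of -0.45. Aurka, the Aurora kinase of centrosomes and spindle poles, read 726, 719.9, 732, 766 and 715 in Irf4-/- samples, against 1154, 972, 1032, 1008 and 1037 in Irf4+/+ samples. Every Irf4-/- sample lay below every Irf4+/+ sample, by 1.42-fold on average (log2 fold change -0.50 ± 0.0588 (SE), adjusted p = 2.43e-06). Plk1, the Polo-like kinase of centrosome maturation and mitotic progression, read 842, 745, 800.3, 721 and 759.5 in Irf4-/- samples, against 958, 984, 1129, 979 and 1057 in Irf4+/+ samples. It was 1.32-fold lower, again without overlap (log2 fold change -0.40 ± 0.0646 (SE), adjusted p = 8.15e-05).

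The chromosomal passenger complex, which corrects faulty attachments and later sits at the midzone, had 3 of its 4 genes lower and a median of -0.24. Aurkb, its kinase, read 637, 599.9, 622, 687 and 640.3 in Irf4-/- samples, against 836, 914, 983, 949 and 1010.5 in Irf4+/+ samples. All Irf4-/- samples were below the Irf4+/+ samples, and Aurkb was 1.47-fold lower (log2 fold change -0.55 ± 0.0649 (SE), adjusted p = 2.52e-06). Incenp, its scaffold, read 4636, 4782, 4749, 4872 and 4758 in Irf4-/- samples, against 6386, 5913, 5796, 5505 and 5162 in Irf4+/+ samples. Its 1.21-fold decrease was without overlap (log2 fold change -0.27 ± 0.0552 (SE), adjusted p = 6.85e-04). Birc5, or survivin, which docks the complex on centromeres, read 2623, 2472, 2536, 2529 and 2842 in Irf4-/- samples, against 3435, 2947, 3107, 2911 and 2752 in Irf4+/+ samples. The ranges overlapped for Birc5, which was 1.16-fold lower (log2 fold change -0.22 ± 0.0623 (SE), adjusted p = 0.00837). Cdca8, or borealin, ran from 2449.8 to 2886 in Irf4-/- samples and 2602 to 3399.6 in Irf4+/+ samples and did not pass the test (log2 fold change -0.16, adjusted p = 0.0883), although it was called lower without Irf4+/+ replicate 3 (adjusted p = 0.0189) and with the mean of its probe sets (log2 fold change -0.24, adjusted p = 0.00491). Incenp lost its call with the mean of its probe sets (log2 fold change -0.13, adjusted p = 0.137) and once probe sets with shared-type names were dropped (log2 fold change -0.11, adjusted p = 0.241).

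Among the spindle checkpoint genes 4 of 5 were lower, with a median of -0.50. Bub1, a kinase recruited to unattached kinetochores, read 1277, 1358, 1414, 1385 and 1313 in Irf4-/- samples, against 1871, 2078, 1936, 1981 and 1684 in Irf4+/+ samples. The samples separated by genotype, with Bub1 1.41-fold lower in Irf4-/- samples (log2 fold change -0.50 ± 0.0606 (SE), adjusted p = 3.76e-06). Ttk, the Mps1 kinase that starts checkpoint signalling, read 371, 338, 385, 426 and 377 in Irf4-/- samples, against 587, 701, 581, 591 and 508 in Irf4+/+ samples. Its 1.55-fold decrease was among the 4 that reached 1.5-fold (log2 fold change -0.63 ± 0.0859 (SE), adjusted p = 1.24e-05). Mad2l1, the Mad2 protein that binds Cdc20, read 2173, 2253, 2118, 2233 and 2313 in Irf4-/- samples, against 3380.0, 2777, 2992, 3113 and 2746 in Irf4+/+ samples. No Irf4-/- sample reached the Irf4+/+ range, and Mad2l1 was 1.35-fold lower (log2 fold change -0.43 ± 0.0600 (SE), adjusted p = 1.56e-05). Bub1b, or BubR1, which also binds Cdc20, ran from 569 to 800.5 in Irf4-/- samples and 928 to 1095 in Irf4+/+ samples and was lower (log2 fold change -0.58, adjusted p = 6.99e-05). Bub3, the adaptor that carries Bub1 and BubR1 to the kinetochore, ran from 4514 to 5331 in Irf4-/- samples and 4638 to 5815 in Irf4+/+ samples and did not pass the test (log2 fold change -0.09, adjusted p = 0.274). Ttk lost its call with the mean of its probe sets (log2 fold change -0.14, adjusted p = 0.351).

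Of the genes of the anaphase-promoting complex and of sister separation 2 of 5 were lower, with a median of -0.19. Cdc20, the activator that the checkpoint restrains, read 3393, 2992, 3070.3, 2953 and 3248 in Irf4-/- samples, against 5296, 4341, 4498, 4391 and 4419 in Irf4+/+ samples. The gap between genotypes was wide, and Cdc20 was 1.46-fold lower (log2 fold change -0.55 ± 0.0622 (SE), adjusted p = 1.66e-06). Espl1, or separase, the protease that cleaves cohesin, read 549, 564, 509, 490.2 and 493 in Irf4-/- samples, against 666, 597, 728, 655 and 633 in Irf4+/+ samples. It was 1.25-fold lower without overlap (log2 fold change -0.33 ± 0.0695 (SE), adjusted p = 9.38e-04). Ube2c, a ubiquitin-conjugating enzyme of the complex, read 1781, 1696, 1614, 1290.1 and 1721 in Irf4-/- samples, against 1882, 1549, 1961, 1662 and 2184 in Irf4+/+ samples. The genotypes overlapped and Ube2c did not pass the test (log2 fold change -0.19 ± 0.0966 (SE), adjusted p = 0.129), except without Irf4+/+ replicate 2 (adjusted p = 0.044), where it was lower. Fbxo5, or Emi1, an inhibitor of the complex, ran from 947 to 1247 in Irf4-/- samples and 1067 to 1251 in Irf4+/+ samples (log2 fold change -0.09, adjusted p = 0.33). Pttg1, or securin, the inhibitor of separase, ran from 3806 to 5056 in Irf4-/- samples and 3875 to 4774 in Irf4+/+ samples (log2 fold change 0.11, adjusted p = 0.237). Neither passed the test, but Pttg1 was called higher without Irf4-/- replicate 4 (adjusted p = 0.0238), with a log2 fold change of 0.18.

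At centromeres and kinetochores 4 of 6 genes were lower, with a median of -0.29. Cenpe, the kinetochore motor that brings chromosomes to the spindle equator, read 541, 536, 579.7, 566 and 568 in Irf4-/- samples, against 871, 899, 702, 831 and 776 in Irf4+/+ samples. The genotypes were far apart relative to their spread, and Cenpe was 1.45-fold lower (log2 fold change -0.54 ± 0.0707 (SE), adjusted p = 8.85e-06). Nuf2, a subunit of the Ndc80 complex that holds microtubules, read 525, 579, 660.3, 796 and 541 in Irf4-/- samples, against 859, 829.6, 751, 792 and 856 in Irf4+/+ samples. It was 1.33-fold lower although its ranges overlapped (log2 fold change -0.41 ± 0.0968 (SE), adjusted p = 0.00223). Cenpa, the histone variant that marks centromeres, read 1293, 1074, 1319.7, 1063 and 1110.1 in Irf4-/- samples, against 1356, 1299.7, 1685, 1587 and 1379.9 in Irf4+/+ samples. Its ranges also overlapped, with a 1.24-fold decrease (log2 fold change -0.32 ± 0.0837 (SE), adjusted p = 0.00509). Cenpf, a large protein of the outer kinetochore, ran from 763 to 879 in Irf4-/- samples and 827 to 1146 in Irf4+/+ samples and was lower (log2 fold change -0.27, adjusted p = 0.0168), but not without Irf4+/+ replicate 2 or 4 (adjusted p between 0.0505 and 0.0528), nor with the mean of its probe sets (log2 fold change -0.07, adjusted p = 0.598). The other subunits of the Ndc80 complex did not pass the test. Ndc80 ran from 511 to 570.1 in Irf4-/- samples and 429 to 584 in Irf4+/+ samples (log2 fold change 0.11, adjusted p = 0.293). Spc25 ran from 974 to 1084 in Irf4-/- samples and 889.6 to 1119 in Irf4+/+ samples (log2 fold change 0.06, adjusted p = 0.468).

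Of the 9 kinesins 8 were lower, most of them by small amounts, with a median of -0.27. Kif2c, or MCAK, which takes microtubules apart at centromeres, read 829, 738, 749.8, 816 and 805 in Irf4-/- samples, against 1007, 1005, 967, 944 and 958 in Irf4+/+ samples. It was 1.24-fold lower without overlap (log2 fold change -0.31 ± 0.0565 (SE), adjusted p = 2.53e-04). Kif18a, which dampens chromosome oscillation, read 198, 202, 234, 282 and 298 in Irf4-/- samples, against 328, 346, 302, 359 and 377 in Irf4+/+ samples. It too was lower without overlap, by 1.41-fold (log2 fold change -0.50 ± 0.113 (SE), adjusted p = 0.00157). Kif20b, a motor of the midzone and midbody, read 738, 737, 712, 683 and 733 in Irf4-/- samples, against 769.7, 885, 796, 935 and 887 in Irf4+/+ samples. Its genotypes did not overlap either, with a 1.18-fold decrease (log2 fold change -0.24 ± 0.0645 (SE), adjusted p = 0.00545), but it lost the call once probe sets with shared-type names were dropped (log2 fold change -0.39, adjusted p = 0.0508). Kif20a, a midzone motor that brings Plk1 and Aurora B there, ran from 517 to 604 in Irf4-/- samples and 600.5 to 710.5 in Irf4+/+ samples (log2 fold change -0.25, adjusted p = 0.00647). Kif11, or Eg5, which pushes the poles apart, ran from 871 to 1029 in Irf4-/- samples and 976 to 1339.7 in Irf4+/+ samples (log2 fold change -0.27, adjusted p = 0.0151). Both were lower with ranges that overlapped. Kifc1, a minus-end motor that focuses poles, ran from 159 to 213 in Irf4-/- samples and 183 to 369.9 in Irf4+/+ samples (log2 fold change -0.42, adjusted p = 0.029) and lost its call without Irf4-/- replicate 2 or 5 or Irf4+/+ replicate 3 or 5 (adjusted p between 0.0501 and 0.0749). Kif4, a chromosome-bound motor that works with Prc1, ran from 464 to 526 in Irf4-/- samples and 494 to 620.2 in Irf4+/+ samples (log2 fold change -0.19, adjusted p = 0.0438) and lost its call without Irf4-/- replicate 1, 2 or 3 or Irf4+/+ replicate 2, 3 or 4 (adjusted p between 0.0683 and 0.11). Kif22, a motor of chromosome arms, ran from 2219 to 3208 in Irf4-/- samples and 2217 to 3883 in Irf4+/+ samples (log2 fold change -0.33, adjusted p = 0.0467) and lost its call without Irf4-/- replicate 1, 2, 3 or 5 or Irf4+/+ replicate 1, 2, 4 or 5 (adjusted p between 0.0542 and 0.118). On their brightest probe sets these 3 kinesins thus stood near the threshold. Kifc1 and Kif4 have no other probe set. In limma over all probe sets, the 2 others of Kif22 were lower. Their log2 fold changes were -0.40 (adjusted p = 7.17e-04) and -0.33 (adjusted p = 0.00575), while its brightest was not called there (adjusted p = 0.0506). Kif23, the motor subunit of centralspindlin, ran from 499.9 to 677 in Irf4-/- samples and 491 to 623 in Irf4+/+ samples and did not pass the test (log2 fold change 0.03, adjusted p = 0.844).

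**Figure D3:**
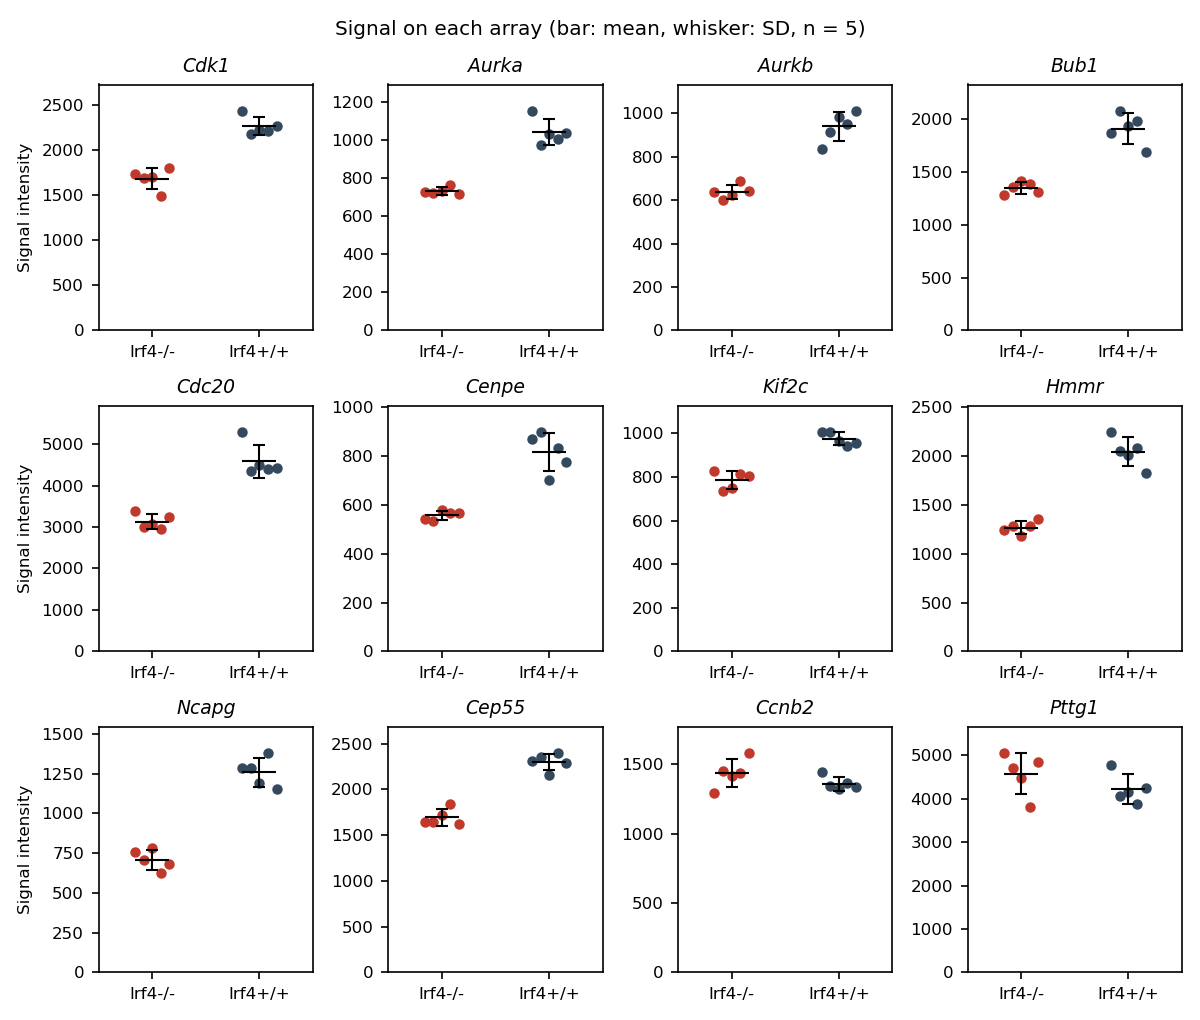
Signal intensity on each array of 12 of the genes, with Irf4-/- samples to the left of Irf4+/+ samples in each panel, a bar at the mean and whiskers of 1 SD (n = 5 each). The genotypes are apart in Cdk1, Aurka, Aurkb, Bub1, Cdc20, Cenpe, Kif2c, Hmmr, Ncapg and Cep55, and overlap in Ccnb2 and Pttg1.

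Among microtubule-binding proteins of the spindle 4 of 6 genes were lower, with a median of -0.37. Hmmr, a spindle pole protein also known as RHAMM, read 1242, 1280.2, 1178, 1279 and 1354 in Irf4-/- samples, against 2248, 2054, 2012, 2082 and 1831 in Irf4+/+ samples. It was the second largest decrease of the 52 genes, 1.61-fold and without overlap (log2 fold change -0.69 ± 0.0608 (SE), adjusted p = 9.37e-08). Tpx2, which activates Aurora A and seeds microtubules, read 851, 874, 920.2, 832 and 871 in Irf4-/- samples, against 1072, 1148, 1129, 1070.4 and 1084 in Irf4+/+ samples. It was 1.26-fold lower without overlap (log2 fold change -0.34 ± 0.0534 (SE), adjusted p = 6.12e-05). Tacc3, a partner of clathrin and chTOG on kinetochore fibres, read 478, 466, 490.2, 431 and 402 in Irf4-/- samples, against 623, 544, 622, 606 and 619 in Irf4+/+ samples. All Irf4-/- samples were below the Irf4+/+ samples, by 1.32-fold (log2 fold change -0.41 ± 0.0716 (SE), adjusted p = 1.76e-04). With the mean of the probe sets neither Tpx2 (log2 fold change -0.11, adjusted p = 0.283) nor Tacc3 (log2 fold change -0.19, adjusted p = 0.457) was called, and Tacc3 lost its call once probe sets with shared-type names were dropped (log2 fold change -0.13, adjusted p = 0.873). Ckap2, a spindle-associated protein, ran from 292 to 391 in Irf4-/- samples and 368 to 505 in Irf4+/+ samples and was lower (log2 fold change -0.39, adjusted p = 0.00366). Nusap1, which bundles microtubules near chromosomes, ran from 1962 to 2231 in Irf4-/- samples and 2142 to 2369 in Irf4+/+ samples and just missed the threshold (log2 fold change -0.13, adjusted p = 0.0528). It was lower without Irf4-/- replicate 5 or Irf4+/+ replicate 5 (adjusted p between 0.0297 and 0.03) and with arrays scaled to a common median (log2 fold change -0.19, adjusted p = 0.024). Prc1, which crosslinks the antiparallel microtubules of the midzone, ran from 762 to 904 in Irf4-/- samples and 771 to 932 in Irf4+/+ samples and did not pass (log2 fold change 0.04, adjusted p = 0.685).

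All 6 genes of chromosome structure were lower, with a median of -0.31. Ncapg, a condensin I subunit, read 756, 704, 783, 624 and 681 in Irf4-/- samples, against 1282, 1287, 1190.5, 1380.0 and 1150.4 in Irf4+/+ samples. This was the largest decrease of the 52 genes, 1.77-fold, with a clear gap between genotypes (log2 fold change -0.82 ± 0.0714 (SE), adjusted p = 7.62e-08). Mki67, the proliferation antigen Ki-67 that coats mitotic chromosomes, read 4446, 4762, 4635, 4534 and 4833 in Irf4-/- samples, against 6782, 6418, 5580.5, 6521 and 5724 in Irf4+/+ samples. It was 1.33-fold lower without overlap (log2 fold change -0.41 ± 0.0586 (SE), adjusted p = 1.86e-05). Smc2, a core ATPase of condensin, read 2371, 2410.1, 2459, 2606 and 2412 in Irf4-/- samples, against 3251, 3382, 2885, 3166 and 2947 in Irf4+/+ samples. Its decrease was 1.27-fold, again without overlap (log2 fold change -0.35 ± 0.0548 (SE), adjusted p = 5.83e-05). Top2a, the topoisomerase that untangles sister chromatids, ran from 4604 to 5313 in Irf4-/- samples and 5567 to 6304 in Irf4+/+ samples (log2 fold change -0.26, adjusted p = 5.87e-04). The other condensin genes were lower by less. Smc4, the partner of Smc2, ran from 4743 to 4856 in Irf4-/- samples and 4839.8 to 5827 in Irf4+/+ samples (log2 fold change -0.15, adjusted p = 0.0361) and lost its call without Irf4-/- replicate 1, 2, 3 or 5 or Irf4+/+ replicate 1, 2 or 4 (adjusted p between 0.0572 and 0.0993). Ncapd2, another condensin I subunit, ran from 1174 to 1423 in Irf4-/- samples and 1376 to 1519.6 in Irf4+/+ samples (log2 fold change -0.17, adjusted p = 0.0346), and was called neither without Irf4-/- replicate 1, 2 or 5 or Irf4+/+ replicate 2, 3 or 5 (adjusted p between 0.053 and 0.089) nor with the mean of its probe sets (log2 fold change -0.23, adjusted p = 0.118).

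Of the 5 cytokinesis genes 4 were lower, with a median of -0.44. Cep55, which recruits the abscission machinery to the midbody, read 1648, 1641, 1716, 1841 and 1626 in Irf4-/- samples, against 2306, 2353, 2157, 2399 and 2289 in Irf4+/+ samples. It was 1.36-fold lower without overlap (log2 fold change -0.44 ± 0.0529 (SE), adjusted p = 3.17e-06). Ect2, the exchange factor that activates RhoA at the cell equator, read 754, 754, 857, 945 and 674 in Irf4-/- samples, against 1186, 1304, 1098, 1229.7 and 1059 in Irf4+/+ samples. All Irf4-/- samples were below all Irf4+/+ samples, by 1.48-fold (log2 fold change -0.56 ± 0.0859 (SE), adjusted p = 4.22e-05). Anln, or anillin, the scaffold of the contractile ring, read 289, 264, 329, 370.3 and 288 in Irf4-/- samples, against 446, 472, 396, 431 and 373 in Irf4+/+ samples. It was 1.37-fold lower without overlap (log2 fold change -0.45 ± 0.0955 (SE), adjusted p = 8.75e-04). Racgap1, the centralspindlin subunit that binds Ect2, ran from 833 to 1010.2 in Irf4-/- samples and 1037 to 1177 in Irf4+/+ samples and was lower (log2 fold change -0.27, adjusted p = 0.00236). Cit, or citron kinase of the midbody, ran from 400.0 to 479 in Irf4-/- samples and 342 to 604 in Irf4+/+ samples and did not pass the test (log2 fold change -0.01, adjusted p = 0.973).

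The other probe sets of these genes gave no opposite call. Of the 111 probe sets of the 52 genes that passed the filter on dim signals, 62 were lower, where 21.3% of all probe sets were, and none was higher (limma over 22520 probe sets), where 21% of all were. Beside the probe set used for each gene there were 59 others past the filter, of which 24 were lower and 35 did not pass the test. Of these 59, 45 had the sign of the main probe set and 14 the opposite sign, in Incenp, Bub1, Bub1b, Bub3, Ttk, Cenpf, Tpx2, Prc1, Smc2 and Cit. At least 2 probe sets were lower for 15 of the 34 genes that have another probe set past the filter. The share of all genes with 2 or more lower probe sets was not computed. All 3 probe sets of Cdc20 were lower, with log2 fold changes of -0.55, -0.70 and -0.93. All 5 of Hmmr were lower, between -0.49 and -0.84. Cenpa was lower on a dimmer probe set by more than on the one used, with -1.46 against -0.32. Cdca8, not called on its brightest probe set, was lower on another, with -0.38 (adjusted p = 0.00197). All 3 probe sets of Pttg1 had log2 fold changes above 0, at 0.11, 0.02 and 0.11, and none passed the test.

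Within the spindle machinery, proteins that work as partners did not always have the same fold change. The difference in log2 signal between the genes of 18 known pairs was taken on each array. The pairs were listed after the single genes had been seen, so the differences are given as values with no test. In 6 pairs the genotypes did not overlap. Of all single genes tested, 18.3% had every Irf4-/- sample below every Irf4+/+ sample and 17.3% had every one above. No such share was computed for other pairs of genes, so the count alone does not set these pairs apart. Ccnb2 minus Cdk1 lay at -0.41 to -0.05 in Irf4-/- samples and -0.76 to -0.69 in Irf4+/+ samples, a shift of 0.50 towards the cyclin in Irf4-/- samples. Nuf2 minus Ndc80 lay at -0.07 to 0.53 in Irf4-/- samples and 0.55 to 0.84 in Irf4+/+ samples, shifted by -0.52. Ncapg minus Ncapd2 lay at -1.18 to -0.65 in Irf4-/- samples and -0.40 to 0.00 in Irf4+/+ samples, a shift of -0.65 and the largest of the 18. These pairs each hold a gene that was clearly lower and one that was lower by less or did not pass. Espl1 minus Pttg1, separase and its inhibitor, lay at -3.28 to -2.94 in Irf4-/- samples and -2.83 to -2.50 in Irf4+/+ samples, a shift of -0.44. Bub1 minus Bub3 was shifted by -0.41, from values of -2.01 to -1.70 in Irf4-/- samples and -1.63 to -1.39 in Irf4+/+ samples. Smc2 minus Smc4 was shifted by -0.19, the smallest of the 6. Some shifts depended on the choice of probe set: with the dimmest probe set past the filter Smc2 minus Smc4 turned to 0.35, Bub1 minus Bub3 was -0.14 and Ncapg minus Ncapd2 was -0.38. The mean of the probe sets gave -0.26 for Bub1 minus Bub3 and -0.13 for Smc2 minus Smc4. The shifts of Ccnb2 minus Cdk1, Nuf2 minus Ndc80 and Espl1 minus Pttg1 stayed at 0.46 to 0.55, -0.61 to -0.46 and -0.48 to -0.40 under the alternatives run on the pairs. Of these genes only Pttg1 has other probe sets. The choice of probe set therefore could not change the shifts of Ccnb2 minus Cdk1 and Nuf2 minus Ndc80. In the other 12 pairs the ranges overlapped, among them Ccna2 minus Cdk1 with a shift of 0.09, Tpx2 minus Aurka with 0.16 and Ndc80 minus Spc25 with 0.05. Only the shift between genotypes is comparable between genes, since levels of different probe sets are not.

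**Figure D4:**
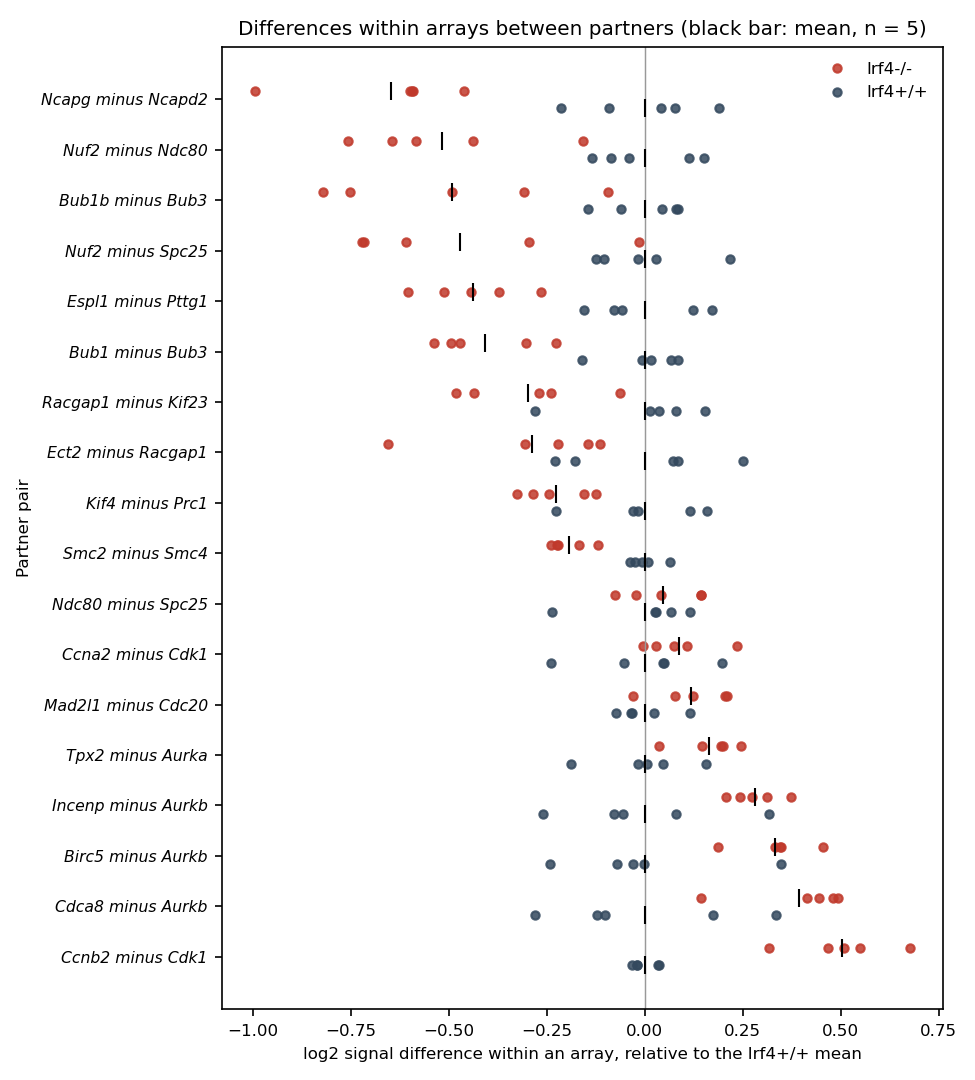
Difference in log2 signal between the 2 genes of each of 18 partner pairs on every array, with the Irf4-/- samples drawn above the Irf4+/+ samples of the same pair and each pair centred on its Irf4+/+ mean. Ncapg minus Ncapd2 has the largest shift, -0.65, and Ccnb2 minus Cdk1 the largest positive one, 0.50.

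Mitosis genes beyond the 52 were lower in about every other case and higher in few. Of 130 further genes tested, 68 (52.3%) were lower, where 23.8% of all genes were, 11 were higher, where 23.2% of all genes were, and 51 did not pass the test, with a median log2 fold change of -0.23; whether the 2 lists differ was not tested. By list, 9 of 18 genes of mitotic entry and transcription were lower, 7 of 20 of the checkpoint and anaphase-promoting complex, 18 of 27 of centromeres and kinetochores, 10 of 16 of cohesin and condensin, 18 of 31 of spindle, centrosomes and motors, and 6 of 18 of cytokinesis; the shares of the checkpoint list (35.0%) and of the cytokinesis list (33.3%) lay nearest to the 23.8% of all genes. Haus4, a subunit of augmin that branches spindle microtubules, averaged 438 ± 40.8 in Irf4-/- samples and 978 ± 56.2 in Irf4+/+ samples (SD, n = 5 each) (log2 fold change -1.15, adjusted p = 1.83e-09). Cdc25b, a phosphatase that starts mitotic entry, averaged 464 ± 30.6 in Irf4-/- samples and 952 ± 90.5 in Irf4+/+ samples (SD, n = 5 each) (log2 fold change -1.02, adjusted p = 1.01e-08). Both had larger decreases than any of the 52 genes on its brightest probe set, although a dimmer probe set of Cenpa reached -1.46. Trip13, the ATPase that recycles Mad2, stood at -0.89, adjusted p = 1.02e-09, and Cenpu of the inner kinetochore -0.84, adjusted p = 1.46e-06. Gtse1, a microtubule-binding protein of G2, had -0.77, adjusted p = 1.06e-06, the condensin II subunit Ncapd3 -0.68, adjusted p = 1.63e-07 and the mitotic kinase Pbk -0.66, adjusted p = 3.17e-07. Ube2s, which extends ubiquitin chains for the anaphase-promoting complex, had -0.64, adjusted p = 3.33e-06, and Cdca2, a phosphatase subunit of chromosomes, -0.55, adjusted p = 8.32e-08. Shcbp1, a midbody protein, had -0.42, adjusted p = 3.10e-06, and Cdca5, or sororin, which protects cohesion, -0.39, adjusted p = 1.23e-05. Of the 11 higher genes the 4 with the smallest p were Lin37, a subunit of the MuvB complex, with 0.61, adjusted p = 4.37e-04, the membrane-cutting ESCRT-III subunit Chmp2a with 0.38, adjusted p = 6.63e-04, the cytoskeletal Septin6 with 0.34, adjusted p = 6.83e-04 and Anapc2, the cullin of the anaphase-promoting complex, with 0.28, adjusted p = 8.77e-04.

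DNA replication genes, which act earlier in the same cycle, were lower in 38 of 48 cases (79.2%, against 23.8% of all genes) and higher in 1, with a median of -0.42. The higher one was Rfc2, a clamp loader subunit, named after its value was seen (0.27, adjusted p = 0.00121). Mcm6, a helicase subunit, stood at -0.83, adjusted p = 2.01e-09, and Dut, which removes dUTP, -0.80, adjusted p = 4.59e-08. The median log2 signal of the replication genes lay between 9.84 and 10.03 on Irf4-/- arrays and between 10.22 and 10.43 on Irf4+/+ arrays. The difference between this list and the mitotic genes was not tested.

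**Figure D5:**
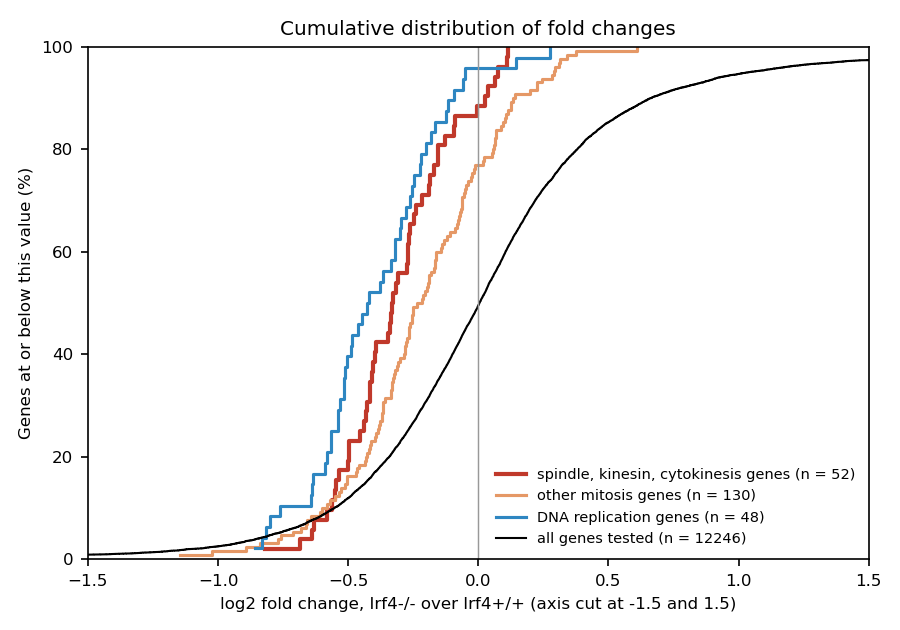
Cumulative share of genes at or below each log2 fold change, Irf4-/- over Irf4+/+, for the 52 mitotic genes, the 130 other mitosis genes, the 48 DNA replication genes and all 12246 genes tested, with the axis ending at 1.5 on either side of 0. The medians are -0.33, -0.23, -0.42 and 0.00.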

How the data were processed

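Total RNA (6 ug per sample) of 10 B cell samples, 5 Irf4-/- and 5 Irf4+/+, was labelled and hybridised to Affymetrix arrays, 1 per sample. The deposited values are signal intensities on a linear scale, made by the authors with MAS5, per the submitters' processing notes; the mean after trimming 2% at each end was 250 on every array, so that each array had been scaled as a whole. Read depth does not apply, and the number of arrays limits the precision. The scanner files were not used here.

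Of 45101 probe sets, 64 controls were left out, 34945 had 1 gene symbol in the platform annotation, 932 had several and were not named, and symbols can be old. From the deposited intensities, log2(signal + 7.9) was computed, the pseudocount being the 20th percentile of all values; fold changes on this scale understate those of dim genes. Probe sets below the 40th percentile of the mean log2 value were left out, and a mean signal under 26.1, the 40th percentile of all values, was called dim. The brightest probe set stood for each gene, which left 12246 genes. limma 3.58.1 in R 4.3.3 (lmFit, eBayes with a trend, two-sided) compared all 10 arrays without covariates, with Benjamini-Hochberg adjustment over the 12246 genes and calls at an adjusted p under 0.05. The code was tested on simulated data. Array controls were compared by exact permutation tests. No test was made on the list as a whole.

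The 53 genes, their roles, the other lists and the tests were chosen with earlier results of these data known. Genes given in full were the 3 with the smallest p of each role (both in a role of 2), and Ccnb2, added after its value was seen; every gene that was not called or had a probe set of opposite sign was named; of each other list the 2 with the smallest p were named, and of the higher other mitosis genes the 4 with the smallest p. Alternatives covered the pseudocount, filter, scaling, variance model, choice of probe set, a replicate block and each array left out. The 18 partner pairs and leaving out arrays for the array controls were chosen after seeing the data; the pairs were recomputed under other scalings, choices of probe set and arrays left out. Promoter sequences came from RefSeq (GRCm38.p6).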

Additional observations from a re-analysis of the deposited data

Results flagged for a closer look

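In 3 of 114 sets of 5 samples, 1 sample stood apart from the other 4 by a gap of more than 0.71 of the whole range (Dixon's criterion), and chance flags about 1 in 20. Cdc20 had a signal of 5296 in Irf4+/+ replicate 1, above the next highest Irf4+/+ sample at 4498. Tacc3 had 543.5 in Irf4+/+ replicate 2, below the next Irf4+/+ sample at 606.2. The 18S ribosomal RNA control read 104.9 in Irf4+/+ replicate 5, above the next at 62.8. Cdc20 and Tacc3 were lower in Irf4-/- samples with any 1 array left out.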

How the results depend on the processing

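Of the 40 genes called lower, 16 kept direction and call under all 23 alternatives and 6 more (Aurkb, Birc5, Nuf2, Kif20a, Ect2 and Ncapg) under the 22 that could be run on them, since 10 of the 52 genes have no probe set past the filter left once those with shared-type names are dropped; 34 kept both with any 1 array left out. Of the 52 genes, 34 have another probe set past the filter. The fold change of the others could not move with the choice of probe set. The share of all called genes that kept their call was not computed. Leaving out 1 array gave 35 to 40 of the 52 genes lower, 0 to 1 higher (1 without Irf4-/- replicate 4, Pttg1) and 0 to 2 of their probe sets higher. Over all genes it gave 2720 to 2901 lower and 2637 to 2812 higher. The Gapdh 3′ to 5′ difference, which was not called, ranged from -0.0069 to 0.0193, Kif23 from -0.0435 to 0.0712 and Cit from -0.0917 to 0.110. Scaling arrays to a common median moved the median log2 fold change of all genes to -0.0567 and of the 52 genes to -0.39, gave 3262 genes lower and 2311 higher with 41 of the 52 lower, and turned Kif23 to -0.0354 and Prc1 to -0.0224; quantile normalization moved the median of all genes to -0.0253. With the dimmest probe set past the filter, 24 of the 52 were lower, most of the genes of a role were lower in 2 roles (9 with the brightest), the median was -0.26, and the other mitosis genes had 37 lower and 7 higher; Incenp turned to 0.0702, Bub1 to 0.00356, Bub1b to 0.24, Bub3 to 0.14, Ttk to 0.35, Cenpf to 0.00507, Prc1 to -0.000441, Smc2 to 0.10 and Cit to 0.49, and Irf4, Cdc25c, Kif2c, Kif4, Kif20b, Tpx2, Tacc3, Ncapd2, Smc4, Anln and Racgap1 lost their call. Under the alternatives, 1948 to 3262 of all genes were lower and 2216 to 2944 higher. The share of all genes with the dimmest probe set alone is not given here, so these counts have no background beside them. None of the genes that changed sign with the dimmest probe set passed the test there. The genotype means of those probe sets ran from 28.7 (Bub1b, Irf4+/+ samples) to 572 (Prc1, Irf4+/+ samples). With the mean of the probe sets the other mitosis genes had 7 higher, Bub3 turned to 0.0134 and Cit to 0.17. Without a filter Kif4, Kif22 and Smc4 lost their call, without a variance trend Kif4, Kif22, Kifc1, Ncapd2 and Smc4, and with quantile normalization Kif22 and Ncapd2; Nusap1 gained one with array weights and with the filter at the 60th percentile. The causes of these differences were not tested. Samples with the same replicate number did not deviate together (r between -0.034 and 0.054; 0 of 5 numbers correlated best with their own), and with the replicate number as a block 38 of the 52 were lower and 2869 and 2808 of all genes were lower and higher, with Kif4 (adjusted p = 0.0671) and Ncapd2 (adjusted p = 0.0522) not called. Of the probe sets used, 24 have names that mark sharing between transcripts. Probe sets that did not pass the filter, 10 of them among the 52 genes, were not tested.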
